A study of Mus musculus with 59 samples.

Results

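Of 7328 PPARδ peaks in the livers of ad lib fed mice, 710 (9.69%, 95% Wilson interval 9.03% to 10.4%) had no PPARα peak at the same place, and these lone PPARδ peaks are described here. They were selected on the PPARα lists by a fixed rule: no PPARα peak centre, fed or fasted, within 200 bp of the PPARδ centre. The other 6618 fed PPARδ peaks, with a PPARα centre within that distance, served as the comparison. All peaks came from ChIP-seq of whole liver of male C57BL/6 mice, with 3 animals per condition joined in a single list. PPARδ, PPARα and the repressor BCL6 were each mapped in WT mice that were ad lib fed or fasted overnight, and BCL6 also in fed Bcl6 fl/fl mice, which carry loxP sites in both Bcl6 alleles and no Cre. The labels give no age. Whole liver holds several cell types, so a peak cannot be given to hepatocytes from the list alone, and a site used in fewer cells cannot be told apart from a weaker site.

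PPARα and PPARδ are nuclear receptors that are switched on by fatty acids and their derivatives. Each pairs with RXR and binds a DR1 element, a direct repeat of the hexamer AGGTCA with 1 base between the copies. PPARα is the main form in hepatocytes, where it drives fatty acid oxidation and ketone production during fasting. PPARδ is best known for fat oxidation in muscle and is also made in liver. BCL6 is a zinc finger repressor that recruits corepressor complexes.

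The lists hold positions only. Each fed PPARδ peak is 192 bp wide, and no list carries a tag count, score or replicate value, so depth is unknown and a site is either listed or not. Intervals of shares are 95% Wilson intervals and cover counting error only. Fisher's exact tests (two-sided) treated peaks as units, and peaks are not replicates of mice.

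The lone peaks carried the receptor's own element at close to the share of the other peaks. A DR1 with at most 2 mismatches lay in 151 of 710 lone peaks (21.3%, 18.4% to 24.4%) and in 1379 of 6618 peaks with PPARα (20.8%, 19.9% to 21.8%). The odds ratio was 1.03 (95% interval 0.849 to 1.24), with an adjusted p = 0.932 over 30 elements by Fisher's exact test. Windows of the same width 1000 bp to either side of the lone peaks held it in 38 of 1420 cases (2.68%), and windows tiled along chromosome 19 in 2.46%. The element read backwards without complement was found in 3.66% of lone peaks. Against their own flanks, the lone peaks had an odds ratio of 9.82 (6.79 to 14.2, Fisher's exact p = 2.53e-43). Of the 5 lone peaks whose DR1 had 0 mismatches, the 4 with the element nearest to the peak centre are given; the other lay in intron 1 of Ankrd11. Sequences are from mm10, plus strand, from the base after the listed start to the listed end, with the DR1 in capitals.
Id1, chr2:152729310-152729502: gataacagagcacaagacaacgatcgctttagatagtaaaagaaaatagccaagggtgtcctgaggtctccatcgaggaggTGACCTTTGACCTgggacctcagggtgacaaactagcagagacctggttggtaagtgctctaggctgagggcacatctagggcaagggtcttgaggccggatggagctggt
Get4, chr5:139285512-139285704: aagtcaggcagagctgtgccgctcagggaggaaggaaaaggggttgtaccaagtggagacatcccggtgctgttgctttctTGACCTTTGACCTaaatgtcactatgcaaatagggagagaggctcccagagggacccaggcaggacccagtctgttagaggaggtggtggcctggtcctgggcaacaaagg
Mapk14, chr17:28720885-28721077: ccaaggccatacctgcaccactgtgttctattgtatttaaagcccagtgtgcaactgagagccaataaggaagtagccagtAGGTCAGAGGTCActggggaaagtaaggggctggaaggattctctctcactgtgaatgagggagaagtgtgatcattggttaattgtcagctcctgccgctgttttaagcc
1110059E24Rik, chr19:21587424-21587616: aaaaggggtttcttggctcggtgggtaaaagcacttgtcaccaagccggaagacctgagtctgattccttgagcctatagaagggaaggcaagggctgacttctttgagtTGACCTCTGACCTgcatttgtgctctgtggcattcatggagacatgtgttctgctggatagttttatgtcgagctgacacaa

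The peak 6845 bp upstream of Id1, an inhibitor of helix-loop-helix transcription factors, lay between genes. It was also listed in fasted liver and had its nearest PPARα centre 8538 bp away. The peak named for Get4, the nearest start site at 32111 bp, lay in intron 4 of Adap1 and was listed in fed liver only. The Mapk14 peak lay in intron 3 of that gene, which encodes the stress kinase p38α, and was listed in both feeding states. The intergenic peak nearest to 1110059E24Rik was listed in fed liver only. In the first 3 the middle of the element was 8.5 bp from the peak centre, and in the last 20.5 bp. None of the 4 had a BCL6 peak in any of the 3 BCL6 lists.

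Perfect copies were rare in both classes. The best DR1 had 0 mismatches in 5 lone peaks (0.704%) and 22 peaks with PPARα (0.332%), and 1 mismatch in 30 (4.23%) and 263 (3.97%). With 2 mismatches the counts were 116 (16.3%) and 1094 (16.5%). Where a DR1 was present, its middle was a median of 29.5 bp from the centre of lone peaks and 28.5 bp from that of the others. It lay within 25 bp of the centre in 71 of 151 lone peaks (47%, 39.2% to 55%) and 625 of 1379 others (45.3%, 42.7% to 48%).

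**Figure D1:**
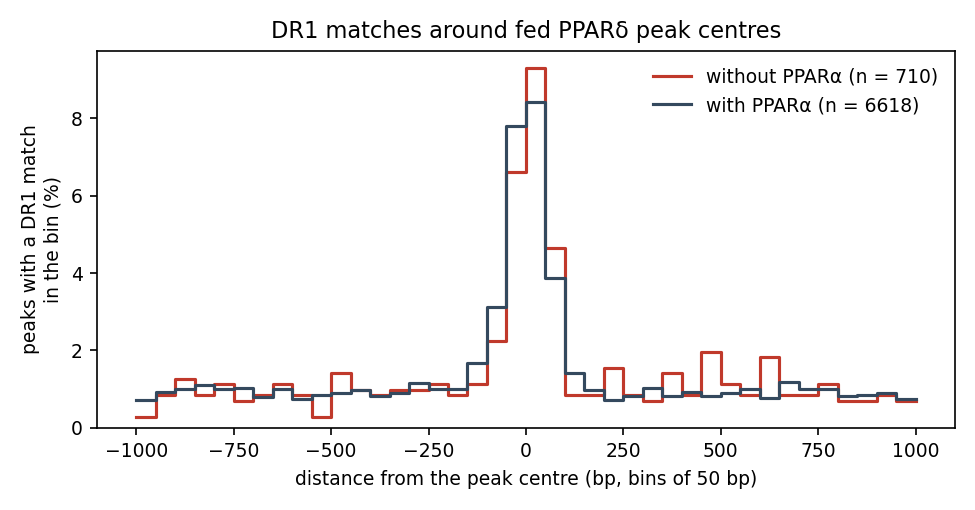
Share of fed PPARδ peaks with a DR1 match (at most 2 mismatches, either strand) in each 50 bp bin, against distance from the peak centre in bp, for peaks without (red) and with PPARα (dark). Both lines peak next to the centre, at 9.3% for lone peaks in the bin from 0 to 50 bp.

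Elements of hepatocyte factors were less frequent in the lone peaks. Of 30 elements tested, 3 were less frequent in lone peaks (10% of those tested) and 0 were more frequent (0% of those tested). At an unadjusted p under 0.05 the counts were 7 less and 0 more frequent. The C/EBP element TTGCGCAA, searched with at most 1 mismatch, was in 38 lone peaks (5.35%) and 671 others (10.1%). Its odds ratio was 0.501 (0.358 to 0.702, adjusted p = 0.000514). The HNF4 element CAAAGTCCA, at most 1 mismatch, was in 88 (12.4%) and 1211 (18.3%), with an odds ratio of 0.632 (0.501 to 0.796, adjusted p = 0.000803). The FOXA element GTAAACA, without mismatch, was in 30 (4.23%) and 515 (7.78%), with an odds ratio of 0.523 (0.359 to 0.762, adjusted p = 0.00377). C/EBP, HNF4 and FOXA proteins are the core activators of hepatocyte genes, and the HNF4 element shares part of the DR1's letters. In the central 50 bp alone, where matches were fewer, none of the 3 passed the test: the odds ratio was 0.508 for FOXA, 0.545 for C/EBP and 0.819 for HNF4 (adjusted p from 0.474 to 0.712). With 1 mismatch fewer, HNF4 was in 9 lone peaks (odds ratio 0.607, adjusted p = 0.434) and C/EBP in 1 (odds ratio 0.548, adjusted p = 1).

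The shares in lone peaks were still above those of chromosome 19 windows, where C/EBP was in 2.25%, HNF4 in 5.75% and FOXA in 2.79%. HNF1 (1.55% and 3.04%) and HNF6 (6.76% and 8.73%) had lower shares too, with adjusted p = 0.18 and 0.211. At least 1 of these 5 elements was in 189 lone peaks (26.6%, 23.5% to 30%) and 2693 others (40.7%, 39.5% to 41.9%). A DR1 without any of the 5 was in 121 lone peaks (17%, 14.5% to 20%) and 903 others (13.6%, 12.8% to 14.5%). The BCL6 element TTCCTAGAA, at most 1 mismatch, was in 9.44% and 8.6% (odds ratio 1.11, 0.849 to 1.45, adjusted p = 0.689).

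**Figure D2:**
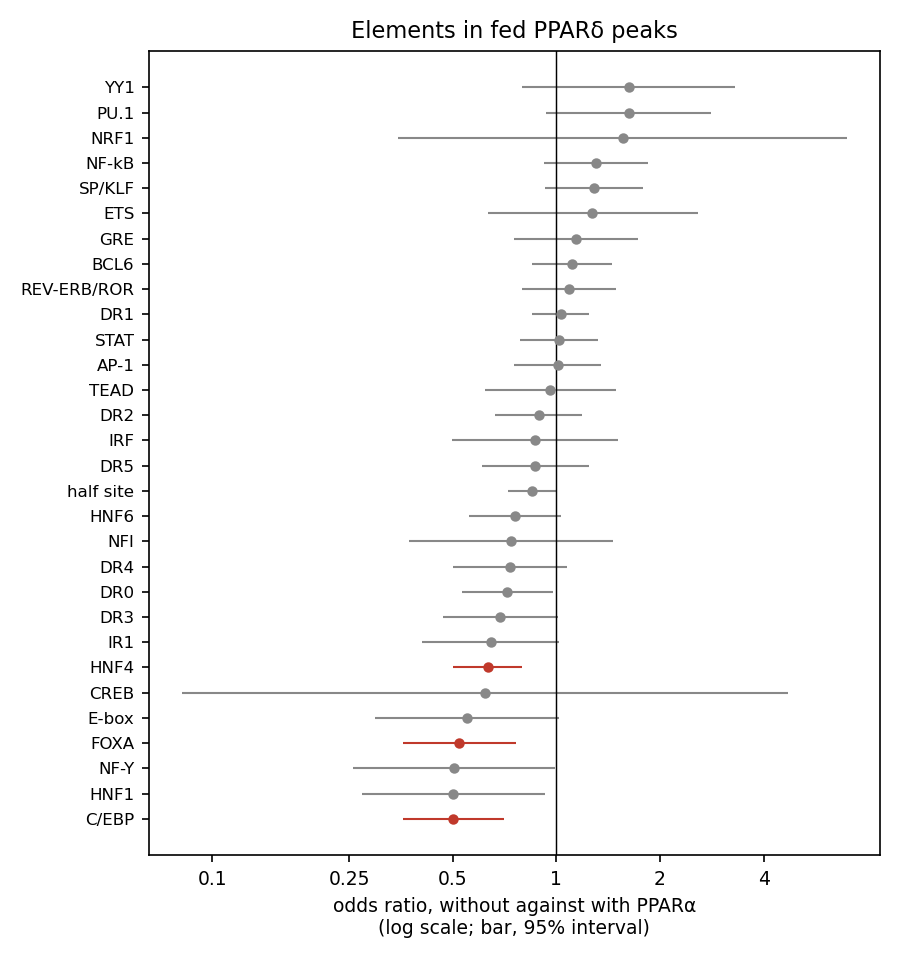
Odds ratio (log scale) of each of 30 elements in fed PPARδ peaks without against with PPARα, with 95% intervals as bars; red marks an adjusted p under 0.05. C/EBP, FOXA and HNF4 are red and all lie to the left of 1.

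A scan of all 2080 words of 6 bases (both strands joined) was made without naming elements. By Fisher's exact test with adjustment over all words, 11 were less frequent in lone peaks (0.529% of words) and 16 more frequent (0.769%). CAAACA, part of the forkhead element, was less frequent, at 18.6% against 27.4% (odds ratio 0.605, adjusted p = 0.000257). GATCAA (7.32% against 12.4%, adjusted p = 0.0167), ATTGGC (5.35% against 9.79%, adjusted p = 0.0185) and AAACAG (17.9% against 24.3%, adjusted p = 0.0216) followed. GTAAAC, within the FOXA element searched above, was in 7.46% and 12.2% (adjusted p = 0.0248). The words that were more frequent were led by purine runs. AAGGAA was in 183 lone peaks (25.8%) and 1084 others (16.4%), with an odds ratio of 1.77 (adjusted p = 4.37e-06). GAGGAA was in 21.4% and 14.7% (adjusted p = 0.00463), GGAGGA in 21.3% and 15.2% (adjusted p = 0.0185), and GAAGAA in 17.2% and 11.9% (adjusted p = 0.0216). CTTCCA was in 22% and 15.9% (adjusted p = 0.0185). Median GC content was 47.9% in both classes. The ETS element CCGGAAG (1.27% and 0.997%) and the PU.1 element GAGGAAGT (2.11% and 1.31%), which hold similar letters, had adjusted p = 0.689 and 0.227.

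The 2 lone peaks below hold 8 of the 16 more frequent words each, shown in capitals on whichever strand they occur. The first lies 11889 bp upstream of Slc22a5, the carnitine transporter, with a PPARα centre 675 bp away. The second lies 29772 bp from the start of Dact1, has its nearest PPARα centre 15687 bp away and was also listed in fasted liver.
Slc22a5, chr11:53903496-53903688: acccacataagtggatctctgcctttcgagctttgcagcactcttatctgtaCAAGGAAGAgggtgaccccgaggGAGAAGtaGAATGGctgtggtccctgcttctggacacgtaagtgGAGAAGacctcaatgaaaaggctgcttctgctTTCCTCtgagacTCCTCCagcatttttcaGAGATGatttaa
Dact1, chr12:71339560-71339752: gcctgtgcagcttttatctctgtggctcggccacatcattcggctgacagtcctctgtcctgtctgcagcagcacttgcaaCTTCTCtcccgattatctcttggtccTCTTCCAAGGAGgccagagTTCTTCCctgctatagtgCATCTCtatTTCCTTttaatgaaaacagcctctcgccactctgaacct

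Few of the lone sites were also on the PPARδ list of fasted liver. A fasted PPARδ centre lay within 200 bp of 130 of 710 lone peaks (18.3%, 15.6% to 21.3%), against 1400 of 6618 peaks with PPARα (21.2%, 20.2% to 22.2%) and 20.9% of all fed PPARδ peaks. The odds ratio was 0.835 (0.685 to 1.02, Fisher's exact p = 0.0802), so no difference was shown at this distance. With 100 bp as the limit for both PPARα and fasted PPARδ, 838 peaks were lone. The odds ratio was then 0.756 (Fisher's exact p = 0.00403). At 400 bp it was 0.825 (Fisher's exact p = 0.0809). For lone peaks over 1000 bp from PPARα, chosen after seeing the data, it was 0.99 (Fisher's exact p = 0.955). The fasted PPARδ list, 2399 peaks of 204 bp, held 660 peaks without PPARα by the same rule (27.5%, 25.8% to 29.3%), of which 533 had no fed PPARδ centre within 200 bp. The other 127 (19.2%) had one. The 20.9% above is a share of fed peaks, 1530 of 7328, so the 19.2% of fasted peaks cannot be read against it. The share of all fasted PPARδ peaks with a fed centre was not counted. It is likely well above 19.2%, since 1530 fed peaks had a fasted centre and the fasted list holds only 2399 peaks.

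In promoters, 11 of 52 lone peaks (21.2%) were listed in both states, against 117 of 424 promoter peaks with PPARα (27.6%). The odds ratio was 0.704 (Fisher's exact p = 0.408), so no difference was shown. A promoter was any place up to 1000 bp before or 100 bp after a RefSeq start site. Slc27a1, a fatty acid transporter, had such a peak 410 bp upstream of its start, with the fasted PPARα centre 204 bp away. Lpcat3, which remodels phospholipids, had one 137 bp upstream, and Mapk14 one 338 bp upstream. Their sequences are shown because they are kept promoter peaks close to a start site and outside UTRs; capitals again mark a DR1 with at most 2 mismatches.
Lpcat3, chr6:124662871-124663063: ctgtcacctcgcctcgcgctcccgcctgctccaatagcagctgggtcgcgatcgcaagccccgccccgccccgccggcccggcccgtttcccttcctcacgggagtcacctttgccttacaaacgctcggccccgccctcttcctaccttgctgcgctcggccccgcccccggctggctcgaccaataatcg
Mapk14, chr17:28690908-28691100: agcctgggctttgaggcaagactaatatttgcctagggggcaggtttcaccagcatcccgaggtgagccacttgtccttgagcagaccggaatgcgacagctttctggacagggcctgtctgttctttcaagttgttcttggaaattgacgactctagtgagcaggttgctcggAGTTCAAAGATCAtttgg
Slc27a1, chr8:71568365-71568557: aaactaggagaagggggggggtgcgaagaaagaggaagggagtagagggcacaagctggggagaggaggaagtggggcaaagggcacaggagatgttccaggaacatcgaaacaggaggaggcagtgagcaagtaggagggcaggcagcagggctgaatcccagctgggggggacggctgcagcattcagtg

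The Mapk14 promoter peak held a DR1 with 2 mismatches, 84.5 bp from the centre. The best matches in the Lpcat3 and Slc27a1 peaks had 3 mismatches and are not marked. The Mapk14 promoter peak also had BCL6 in fed Bcl6 fl/fl liver. Other promoter peaks kept in fasted liver lay near Ifi47, an interferon-induced GTPase (25 bp from the start), Rps19, a ribosomal protein (40 bp), Mterf3, a mitochondrial transcription factor (145 bp), and Rock2, a kinase of the cytoskeleton (837 bp). PPARα centres lay 336 bp from the Rps19 peak and 229 bp from the Mterf3 peak. The Mapk14 promoter peak had a fasted PPARα centre 312 bp away, and the nearest to the Lpcat3 peak was at 283 bp. For Ifi47 and Rock2 the nearest were 7290 and 16397 bp away. Mapk14 therefore had lone PPARδ peaks in its promoter and in intron 3, both listed in both states.

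BCL6 was seldom found at the lone peaks. A fed BCL6 centre lay within 200 bp of 82 lone peaks (11.5%, 9.4% to 14.1%) and of 4128 peaks with PPARα (62.4%, 61.2% to 63.5%), beside 57.5% of all fed PPARδ peaks. The odds ratio was 0.0788 (0.0622 to 0.0997, adjusted p = 1.1e-158). In fasted liver the counts were 25 (3.52%, 2.4% to 5.15%) and 3209 (48.5%, 47.3% to 49.7%), beside 44.1% of all, with an odds ratio of 0.0388 (adjusted p = 8.22e-148). In fed Bcl6 fl/fl liver they were 100 (14.1%, 11.7% to 16.8%) and 4698 (71%, 69.9% to 72.1%), beside 65.5% of all, with an odds ratio of 0.067 (adjusted p = 3.29e-196). The fasted BCL6 list is shorter, with 9613 peaks against 15642 fed and 17454 in fed Bcl6 fl/fl liver. In all, 573 lone peaks had no BCL6 in any list, 137 had it in at least 1 (19.3%, 16.6% to 22.4%) and 18 in all 3. At least 1 list held BCL6 at 5332 of the peaks with PPARα (80.6%).

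**Figure D3:**
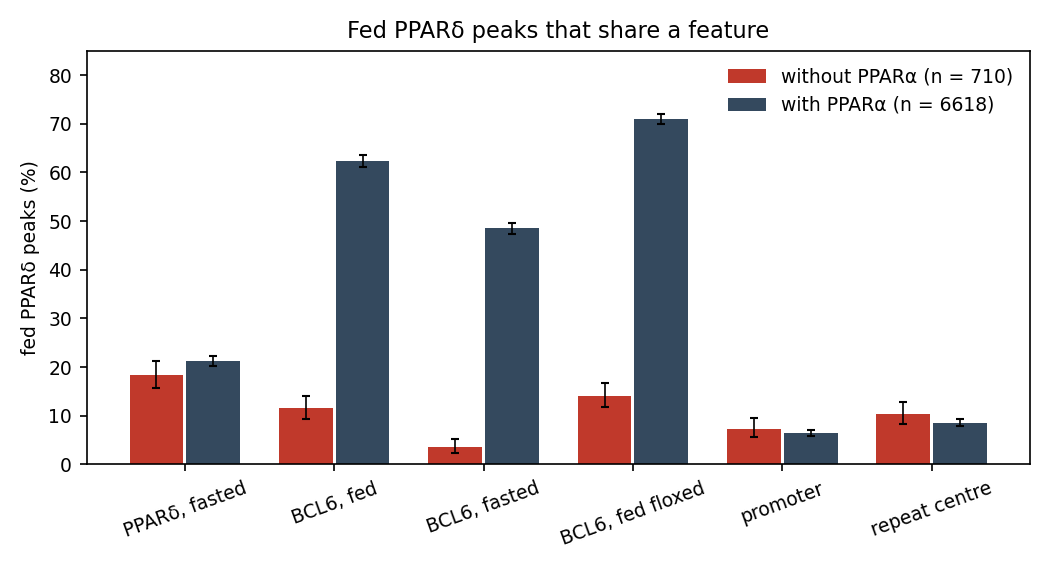
Percentage of fed PPARδ peaks that share each feature, for peaks without (red) and with PPARα (dark); bars are shares and whiskers 95% Wilson intervals. The classes are far apart for the 3 BCL6 lists (11.5% against 62.4% in fed liver) and overlap in their intervals for fasted PPARδ, promoters and repeat centres.

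Of the lone peaks with BCL6 in all 3 lists, the one nearest to a start site lay 368 bp upstream of Nr1i2, the xenobiotic receptor PXR, with PPARα centres 332 bp (fed) and 249 bp (fasted) away. Another lay in intron 1 of Ninj1, an adhesion protein that ruptures dying cells, 3038 bp from the start, and a further one in intron 1 of Ski, a corepressor of TGF-β signalling, at 5219 bp. The Gpt2 peak, near a gene for an alanine transaminase, lay 26349 bp upstream and 3523 bp from the nearest PPARα centre. The peak nearest to Gadd45b lay in intron 2 of Gng7, and the peak 62659 bp from Prox1, a hepatocyte homeobox factor, was intergenic. None of the 10 such peaks nearest to a start site was in the fasted PPARδ list, beside 18.3% of all lone peaks. With so few peaks this count cannot show a difference from that share, and it was not tested.

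The lone peaks that stayed in fasted liver had less BCL6 than those listed in fed liver only. Fed BCL6 was at 3 of 130 kept lone peaks (2.31%, 0.788% to 6.57%) and at 79 of 580 fed-only ones (13.6%, 11.1% to 16.7%), with an odds ratio of 0.15 (0.0465 to 0.482, adjusted p = 0.000284 over 5 features). In fed Bcl6 fl/fl liver the counts were 8 (6.15%) and 92 (15.9%), with an odds ratio of 0.348 (0.164 to 0.736, adjusted p = 0.00784). Fasted BCL6 was at 1 and 24 (odds ratio 0.18, adjusted p = 0.109). The 3 kept peaks with fed BCL6 lay in intron 2 of Pi4kb, in intron 2 of Slc6a13 and in intron 2 of 3110009F21Rik, 124514 bp upstream of Dio3; they are named after their values were seen. Promoter location (8.46% and 7.07%, odds ratio 1.22, 0.607 to 2.43) and DR1 (23.1% and 20.9%, odds ratio 1.14, 0.722 to 1.79) had adjusted p = 0.577 each.

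Among peaks with PPARα, fed BCL6 was at 62.4% of both the kept and the fed-only peaks (odds ratio 0.999, 0.884 to 1.13). There the kept peaks had DR1 more often, 26.2% against 19.4% (odds ratio 1.48, 1.29 to 1.69, Fisher's exact p = 4.82e-08).

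**Figure D4:**
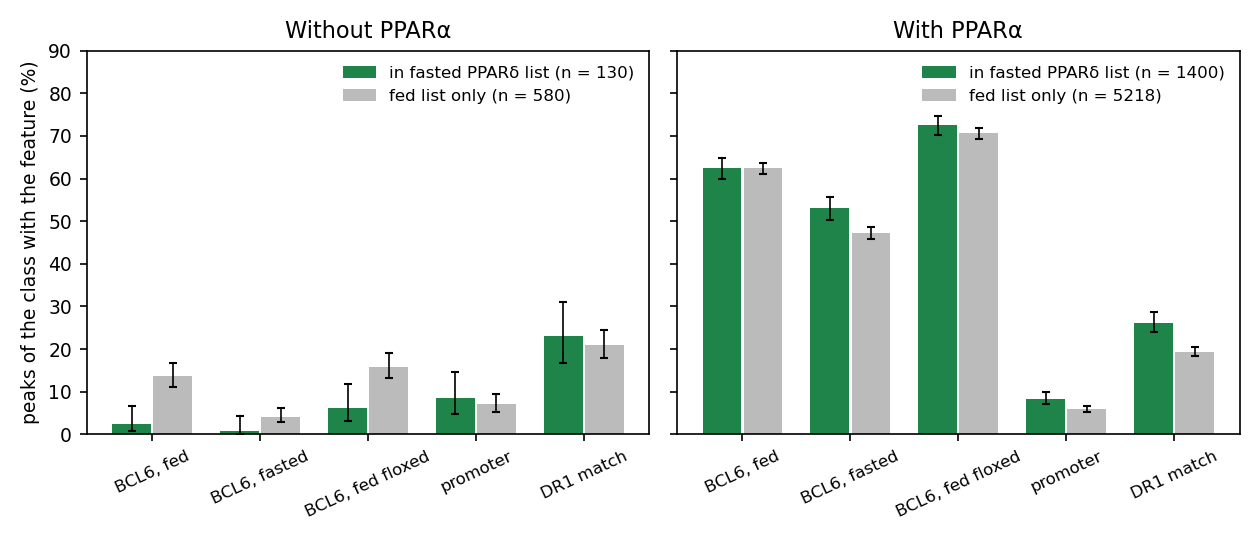
Percentage of peaks with each feature among fed PPARδ peaks that are also in the fasted PPARδ list (green) and fed-only peaks (grey), without PPARα on the left and with PPARα on the right; whiskers are 95% Wilson intervals. Fed BCL6 stands at 2.31% and 13.6% on the left and at 62.4% in both bars on the right.

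Many lone peaks had PPARα close by. The distance to the nearest PPARα centre chose them and is given as a description. Its median was 5063 bp, with quartiles of 740 and 25712 bp, and 2 peaks had no PPARα peak on their chromosome, which was Y. Within 1000 bp there was a PPARα centre for 205 lone peaks, while 284 (40%) had none within 10 kb. Just outside the limit were peaks near Mtarc1 (203 bp), Slc27a1 and Nr1d1 (204 bp each), and just inside were peaks near Oacyl (199 bp), Twsg1 and Bnip3 (191 bp each). Few peaks lay near the limit: 24 of the comparison peaks were more than 150 bp from PPARα and 31 lone peaks were at most 250 bp away, and 98.1% of the comparison peaks were under 100 bp away.

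Fasted PPARδ and BCL6 are given by distance to PPARα without a test, since that distance chose the members and the division at 10 kb was made after the data were seen. A fasted PPARδ peak was present at 78 of 284 lone peaks over 10 kb from PPARα (27.5%, 22.6% to 32.9%) and at 52 of 426 nearer ones (12.2%, 9.43% to 15.7%). The share of the peaks with PPARα, 21.2%, lay between them. The share was 11.7% from 200 to 1000 bp (n = 205), 12.7% from 1 to 10 kb (n = 221), 27.7% from 10 to 100 kb (n = 224) and 26.7% beyond 100 kb (n = 60). Without any peak that had BCL6 in some list, the far and near shares were 30.6% (25.2% to 36.6%) and 14% (10.7% to 18.2%).

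BCL6 of fed Bcl6 fl/fl liver was at 18.3% of the nearer lone peaks and 7.75% of the far ones. Fed BCL6 of the mice without the floxed alleles was at 12.7% and 9.86%. Within the far peaks, fed BCL6 was at 1 of 78 kept and 27 of 206 fed-only peaks. Within the near peaks it was at 2 of 52 and 52 of 374. DR1 was in 21.5% of the far and 21.1% of the near lone peaks. A C/EBP element was in 7.8%, 4.52%, 5.36% and 0% of the lone peaks in the 4 classes from near to far, and a FOXA element in 3.9%, 4.52%, 4.46% and 3.33%. The 0 of 60 peaks for C/EBP allows a share of up to 5%.

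**Figure D5:**
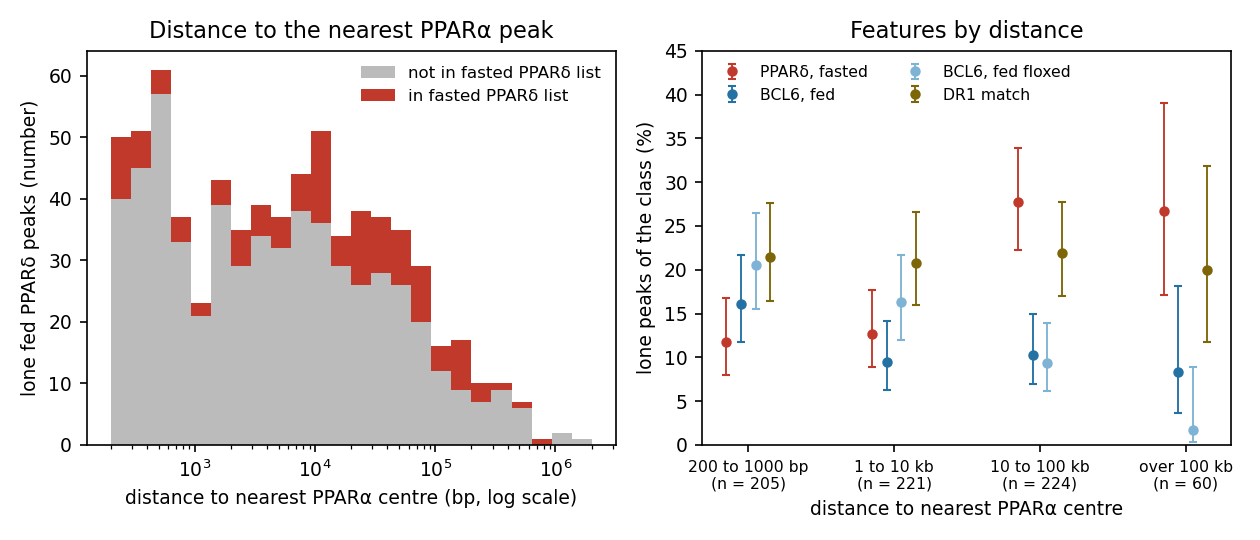
Left, number of lone fed PPARδ peaks by distance to the nearest PPARα centre (bp, log scale), with those also in the fasted PPARδ list in red and the 2 on Y left out. Right, percentage of lone peaks with a fasted PPARδ, fed BCL6, fed Bcl6 fl/fl BCL6 or DR1 match in 4 distance classes, with 95% Wilson intervals; fasted PPARδ goes from 11.7% to 26.7% and DR1 stays between 20% and 21.9%.

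The lone peaks lay mostly in introns and between genes. They were in introns in 377 cases (53.1%, 49.4% to 56.7%) and between genes in 256 (36.1%, 32.6% to 39.7%), against 49% and 41.3%. A promoter held 52 (7.32%, 5.63% to 9.48%) and 424 of the others (6.41%), with an odds ratio of 1.15 (0.856 to 1.56, Fisher's exact p = 0.337). With promoters taken as 1000 bp to either side of a start, the shares were 12.1% and 8.82% (Fisher's exact p = 0.00493). The rest lay in coding exons (10), 3' UTRs (12), noncoding exons (2) and a 5' UTR (1). The median distance to a protein-coding start was 20077 bp, and 20344 bp for the others. The centre base was in a masked repeat in 74 lone peaks (10.4%) and 567 others (8.57%, odds ratio 1.24, 0.962 to 1.6, Fisher's exact p = 0.107). With a repeat over 50% or more of the interval, the shares were 5.35% and 2.98% (odds ratio 1.84, exact p = 0.00153). Of 21 chromosomes, 0 passed the adjusted Fisher's exact test. At an unadjusted p under 0.05 there was 1, the Y chromosome, with 2 lone peaks and 0 others (exact p = 0.00938, adjusted p = 0.197). Lone peaks were scattered: 20 had another lone peak within 10 kb, and 175 (24.6%) had some other fed PPARδ peak there.

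By the nearest start within 1 Mb, 709 lone peaks fell to 655 protein-coding genes, 3.12% of the 21000 genes. For 602 of these there was 1 lone peak and for 52 there were 2. Pde4b, a cyclic AMP phosphodiesterase, had 3, and none of these was kept in fasted liver. A4galt, a glycosphingolipid synthase, had 2 lone peaks, both kept, with no PPARα peak assigned to the gene, and Afap1l2 also had 2, both kept. Atxn1 had 2 lone peaks beside 5 fed PPARδ peaks with PPARα. Of the 655 genes, 319 (48.7%) also had a fed PPARδ peak with PPARα, and 569 (86.9%) had a PPARα peak of their own, against 48.9% of all genes. A further 86 had none.

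The gene lists were set beside the share of all genes. A lone peak was nearest to 2 of 42 genes of fatty acid oxidation and ketogenesis, the classical PPAR targets (4.76%), while 37 of the 42 (88.1%) had a fed PPARδ peak with PPARα. Of all protein-coding genes, 3.12% had a lone peak and 17.6% a peak with PPARα. These counts and those of the lists that follow are descriptions without a test. Acadm, the medium-chain acyl-CoA dehydrogenase, had a lone peak 2877 bp upstream with a PPARα centre 860 bp away. Of 22 genes of lipogenesis and cholesterol, 3 (13.6%) had one: Thrsp, a lipogenic factor (259 bp upstream, with fed BCL6), Insig2, which holds back SREBP (16718 bp upstream), and Hmgcs1, of cholesterol synthesis (22604 bp downstream). Their nearest PPARα centres were 1100 bp, 251 bp and 393 bp away. Of the 22 genes, 16 (72.7%) had a fed PPARδ peak with PPARα.

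Of 20 genes of glucose and insulin action, 7 (35%) had a lone peak and 18 (90%) a peak with PPARα, beside 3.12% and 17.6% of all genes. Pcx, pyruvate carboxylase of gluconeogenesis, had lone peaks 363 and 25265 bp upstream of its nearest start. Those of Insr, the insulin receptor (17617 bp, intron 1), Irs2, its adaptor (61036 bp), Igfbp1 (62261 bp), Ppp1r3b, Foxo1 and Ppargc1a (300823 bp) were more remote from the start. Most lay close to PPARα. The nearest PPARα centres were 294 and 789 bp from the Pcx peaks and 5254 bp from the Insr peak. They were 243 to 505 bp from the peaks of Ppargc1a, Foxo1, Ppp1r3b, Igfbp1 and Irs2. Of all 710 lone peaks, 205 had a PPARα centre within 1000 bp. Of these 8 peaks, 0 were in the fasted PPARδ list and 0 had BCL6, beside 18.3% and 19.3% of all lone peaks.

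Of 31 hepatocyte factors and nuclear receptors, 6 (19.4%) had a lone peak, beside 3.12% of all genes. A fed PPARδ peak with PPARα was near 21 of the 31 (67.7%), beside 17.6% of all genes. Rxra, the partner of both PPARs, had one 82 bp downstream of a start, in the 5' UTR of exon 1, with 2 DR1 mismatches, its fasted PPARα centre 3674 bp and its fed one 28324 bp away. A second Rxra peak was in intron 4. Esrra, an oestrogen-related receptor of mitochondrial genes, had one in intron 1 with 1 DR1 mismatch that was kept in fasted liver. Nr5a2 and Prox1 had ones with fed BCL6 that were remote from the start, and Bcl6 itself had one 68816 bp upstream. PPARα centres lay 309 bp from the Nr5a2 peak, 420 bp from the Prox1 peak, 399 bp from the Bcl6 peak and 325 bp from the Esrra peak. Of 19 clock genes, 13 (68.4%) had a fed PPARδ peak with PPARα and 3 (15.8%) a lone peak. The 3 were Nr1d1, the repressor REV-ERBα (7960 bp upstream, kept, 204 bp from fed PPARα), Hlf (13260 bp, intron 2) and Bhlhe41 (36191 bp, with fed BCL6).

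By the markers of liver cell types, 5 of 15 hepatocyte genes had a lone peak (33.3%): Alb, Cps1, Ass1, Ahsg and Trf. The nearest PPARα centres were 287 to 555 bp from the Cps1, Trf and Alb peaks and 4066 bp from the Ahsg peak. The urea cycle gene Cps1 had a lone peak in its first coding exon, 157 bp from the start. Ass1, of the same cycle, had 2 upstream, of which the nearer was kept. PPARα centres lay 283 bp from the nearer and 1236 bp from the other. Of all genes, 3.12% had a lone peak. No lone peak was nearest to any of 15 Kupffer cell and macrophage, 13 endothelial, 12 stellate cell and fibroblast or 9 lymphocyte markers; with so few genes in a list, 0 is also near the share of all genes. Of 6 cholangiocyte markers, Spp1 (258 bp from the start, intron 2) and Sox9 (179103 bp) had one (33.3%, the same share as for hepatocyte markers). Peaks with PPARα were near 13 hepatocyte, 1 macrophage, 5 endothelial, 1 stellate cell, 2 cholangiocyte and 0 lymphocyte markers.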

How the data were processed

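ChIP-seq libraries were prepared from crosslinked livers of 3 mice per condition. Reads had been aligned to mm10 by the authors (Bowtie, unique matches only), and a position could start 1 read at most. Candidate peaks were found by the authors with HOMER in the joined replicates, with input chromatin as control. The authors then ran DESeq2 over the single libraries and retained peaks with an enrichment of 2-fold or more that passed a false discovery rate threshold. The deposited lists give chromosome, start and end in bp, with no count, score, p-value or normalization. Reads with several places in the genome were left out, so copies of a repeat can lack peaks in all lists.

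The 7 lists stem from 21 of the 59 samples, grouped by the labels. Peaks were called shared when their centres lay within 200 bp, the distance of the study. Positions were set against 45756 RefSeq transcripts of GRCm38, the assembly of mm10. Elements and words of 6 bases were searched on both strands of the deposited 192 bp intervals. Fisher's exact test (two-sided) was used on counts of peaks, with Benjamini-Hochberg adjustment inside a family; odds ratios carry Woolf intervals. Functions were tested on simulated data. The members, gene lists and tests were chosen with earlier results of these data known.

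Named genes followed a rule on the nearest protein-coding start within 1 Mb: genes with the most lone peaks, genes of the lists with a lone peak, promoter peaks kept in fasted liver, peaks with BCL6 in all 3 lists, and peaks next to the distance limit. Words were the 5 with the smallest p in each direction. A replicate error could not be had, since no list is per animal. Alternatives changed the distance, promoter, window, mismatches, masking and peak class. ChIP-seq and RNA-seq samples without a peak list were not used here. A gene that the rule would name is not reported here. Versions were SciPy 1.17.1 and statsmodels 0.14.6 for tests, NumPy 2.4.6, Matplotlib 3.10.9 and Python 3.11.15.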

Additional observations from a re-analysis of the deposited data

Results flagged for a closer look

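The contrast between kept and fed-only PPARδ peaks in BCL6 differed between peaks without and with PPARα. For fed BCL6 the odds ratio was 0.15 without PPARα and 0.999 with it, and a Breslow-Day test (Tarone's form) of equal odds gave an adjusted p = 0.000915 over the 3 BCL6 lists. In fed Bcl6 fl/fl liver the odds ratios were 0.348 and 1.1 (adjusted p = 0.00282), and for fasted BCL6 they were 0.18 and 1.26 (adjusted p = 0.0281). The test is asymptotic, and the kept lone peaks with BCL6 number 3, 8 and 1 in these lists.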

How the results depend on the processing

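No paired analysis was possible because each list joins its replicates, and for the same reason no replicate could be left out. The fewer BCL6 peaks at lone sites held in every alternative run. The count of 710 lone peaks became 1429 against the fed PPARα list alone. The odds ratio of being kept in fasted liver was 0.756 at 100 bp and 0.825 at 400 bp. It was 0.99 for lone peaks over 1000 bp from PPARα (chosen after seeing the data). For promoters it was 0.981 at 400 bp, 0.89 for lone peaks over 1000 bp from PPARα (chosen after seeing the data) and 1.42 with 1000 bp on either side of the start. For repeats it was 1.84 with 50% or more of the interval masked, which then passed the test. The less frequent elements fell from 3 to 0 in the central 50 bp and in promoter peaks, and to 1 with 1 mismatch fewer. Matches were fewer in the first 2 of these runs, and for HNF4 and C/EBP also in the last. In promoter peaks (52 lone peaks) HNF4 and FOXA had odds ratios of 0.414 and 0.474. In the central 50 bp the odds ratios were 0.508 for FOXA, 0.545 for C/EBP and 0.819 for HNF4. Elements reversed without complement, a control, gave 0 less frequent elements. DR1 had an odds ratio of 0.952 at 100 bp, and C/EBP 1.07 in promoter peaks. More and less frequent words numbered 9 and 4 in the central 100 bp, 8 and 20 with masked bases left out, 8 and 4 for lone peaks over 1000 bp from PPARα, and 0 and 0 in promoter peaks. Less frequent words were 6 outside promoters and 21 at 100 bp. Between kept and fed-only lone peaks, the odds ratio for promoters was 0.625 at 400 bp and 0.774 for lone peaks over 1000 bp from PPARα. For fasted BCL6 it was 0 at 400 bp, with 0 of 114 kept peaks. Outside promoters, 13 of the 16 more frequent and 6 of the 11 less frequent words were still called. The causes were not tested. Depth is unknown, so a site missing from a list may be bound below its threshold.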
